A study of Danio rerio with 12 samples.

Results

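The genes described here carry proteins and lipids between the membranes of the cell, and they were followed in zebrafish embryos that developed with or without lead (Pb). They were chosen by symbol alone. A symbol had to begin like those of the Rab, Arf, and Arl GTPases, the sorting nexins (SNX), the Vps and Sec proteins, the syntaxins and other SNAREs, the coat and adaptor subunits, the TRAPP and exocyst tethers, BLOC-1, the CHMP proteins, or the p24 proteins. The array held 37157 targets, each 1 transcript or predicted transcript, and 2663 of them (7.17%) could be given a gene symbol. The rule took 60 of these 2663 targets, each from a different gene. *cops3* and *cops6* entered through their letters only. They encode subunits of the COP9 signalosome, which removes Nedd8 from cullin ubiquitin ligases, and 58 members remain without them. *sec61b* and *sec63*, which the rule also took, act in the entry of proteins into the endoplasmic reticulum and not in vesicles. *rab11fip4a*, *rab3gap1*, and *rab5if* are by name partners of Rab GTPases and are counted with the Rab genes here. Likewise, *arl14ep* and *arl6ip6* are counted with the Arf and Arl genes.

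All embryos were of the wild-type AB strain. The control groups were kept at 0 ppb Pb and the Pb-treated groups at 100 ppb Pb, given as lead acetate, in both cases from about 1 hr postfertilization (hpf). They were collected at 72 hpf or at 120 hpf. Each of the 4 groups had 3 arrays, 12 in all, and each array carried the RNA of 1 pool of 50 whole embryos, which the labels call a biological replicate. In RNA from whole embryos, fewer cells of a type and less RNA per cell cannot be told apart. The comparisons were Pb with control at each time point, the difference between both, and 120 with 72 hpf.

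Small GTPases of the Rab, Arf, and Arl families act as switches that give each organelle its identity and recruit coats, motors, and tethers. Adaptor complexes select cargo for coated vesicles, tethers such as TRAPP, HOPS, and the exocyst hold an arriving vesicle at its target, and SNAREs then fuse both membranes. On endosomes, sorting nexins and the Vps proteins send cargo back to the Golgi or the cell surface, or through the ESCRT machinery into the lysosome, and BLOC-1 serves the building of lysosome-related organelles such as melanosomes.

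All levels below are log2 intensities, given as the mean of a target's probes after quantile normalization of the 12 arrays, so that a difference of 1 is a doubling of the signal. A gene was called where limma gave an adjusted p under 0.05 over all 37157 targets. Its standard errors and intervals use a spread per target that all 4 groups share, not only the arrays compared. Of the 60 targets, 54 had 12 probes and the fewest were the 3 probes of *trappc2l*. Arrays differed in how closely they matched their group and in the signal along transcripts. The mean correlation of an array with the others of its group was 0.914, 0.946, and 0.931 on the Pb arrays of 72 hpf for replicates 1, 2, and 3, against 0.979 to 0.984 on their controls and 0.945 to 0.98 at 120 hpf. The slope of the log2 signal from the first to the last probe of a target averaged 0.608 on the Pb array of replicate 1 at 72 hpf and 0.0272 to 0.468 on the other 11. Bright markers of the labelled whole embryo were found, with the muscle genes *acta1b* and *mylpfb* at or above the 99.7th percentile of targets. Markers were sought only among the targets with a symbol. Of 8 heart genes 3 were found there, the dimmest at the 23.7th percentile, of 14 neuronal genes 3, and of the liver, epidermis, and cartilage lists none.

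**Figure D1:**
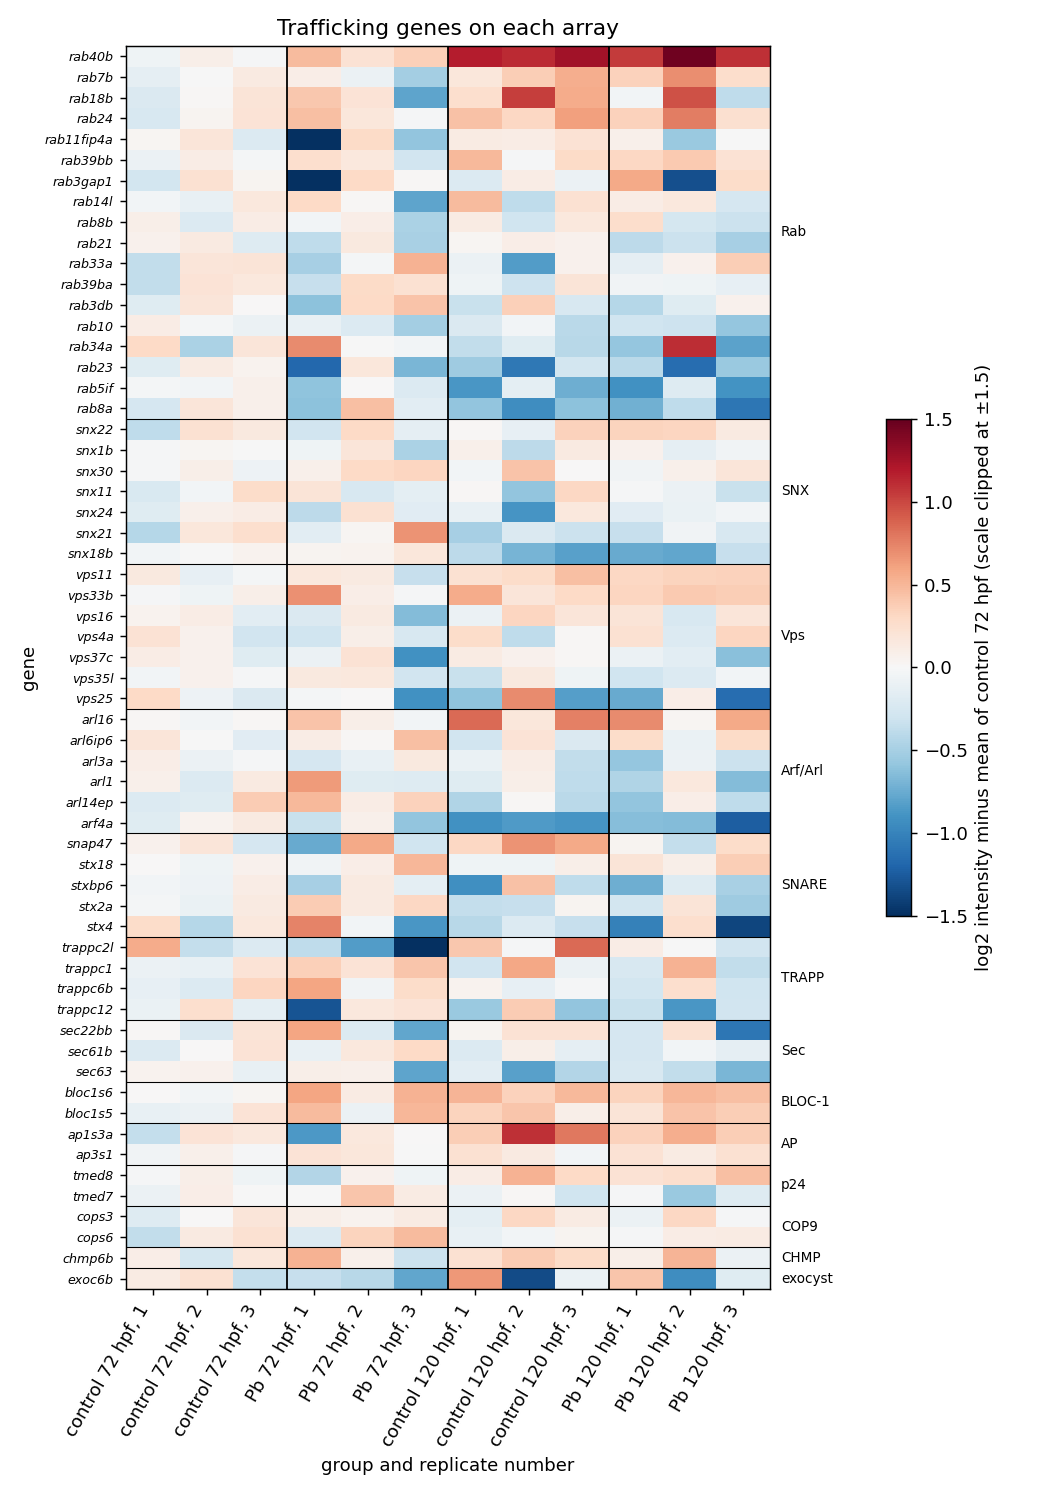
Log2 intensity of the 60 genes (rows, grouped by role) on the 12 arrays (columns), minus the gene's mean over the 3 control arrays of 72 hpf, with red higher, blue lower, and the scale ending at ±1.5. The row of *rab40b* is red on all 6 arrays of 120 hpf, those of *arf4a* and *snx18b* are blue there, and single Pb arrays stand out in the rows of *rab11fip4a* and *rab3gap1*.

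Developmental stage, not Pb, gave the calls among these genes. From 72 to 120 hpf in control embryos, *rab40b* rose and *arf4a* fell, and in Pb-treated embryos *rab40b* rose again. The calls were thus 2 of 60 genes (3.33%) in controls, where 4.75% of all targets were called (3.61% higher and 1.14% lower), and 1 of 60 (1.67%) with Pb, where 2.96% of all targets were (2.23% higher and 0.729% lower). At an unadjusted p under 0.05, limma took 8 of the 60 genes (13.3%) in controls and 11 with Pb, against 16.6% and 14.5% of all targets. The median log2 change of the 60 genes was -0.03 in controls and -0.03 with Pb, next to -0.04 and -0.05 over all targets, and the changes ran from -0.88 to 1.18 and from -0.71 to 0.85. Groups did not overlap for 18 genes in controls, 12 higher and 6 lower, where 30.7% of all targets did not (15.1% higher and 15.6% lower). With Pb they did not overlap for 10 genes, 6 higher and 4 lower, against 15% of all targets (7.97% and 6.98%). With both treatments pooled, 6 arrays against 6, a comparison chosen after the values were seen, *rab40b* and *ap1s3a* rose and *arf4a*, *snx18b*, and *rab8a* fell. These are 5 of 60 genes (8.33%) against 12.4% of all targets (7.62% higher and 4.74% lower). The pooled comparison treats the 6 arrays of a stage as independent. Same-numbered control and Pb arrays of 120 hpf deviated together, so its standard errors may be too small. All 6 later arrays lay above all 6 earlier ones for 5 genes and below them for 2, against 5.44% and 3.1% of all targets, and 14 genes had an unadjusted p under 0.05 (23.3%, against 25.7% of all targets).

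*rab40b* encodes a Rab with a SOCS box, through which its mammalian counterpart joins a cullin ubiquitin ligase. Its log2 intensities were 8.52, 8.67, and 8.57 on the control arrays of 72 hpf and 9.76, 9.71, and 9.85 on those of 120 hpf. With Pb they were 9.06, 8.80, and 8.94 at 72 hpf and 9.63, 10.04, and 9.68 at 120 hpf. All 6 values of the later stage lay above all 6 of the earlier one, and the 3 Pb values of 72 hpf lay between the controls of both stages. The rise was 2.27-fold in controls (log2 fold change 1.18 ± 0.178 SE, limma adjusted p = 0.00187) and 1.8-fold with Pb (log2 fold change 0.85, adjusted p = 0.0219). All 12 probes were higher at 120 hpf in controls and 11 of 12 with Pb. The call with Pb was lost without the Pb array of replicate 2 at either stage (log2 fold change 0.78, adjusted p = 0.0719 without that of 72 hpf, and 0.72, adjusted p = 0.0664 without that of 120 hpf, limma). With the values as deposited, where the median of all targets shifted by -0.33 between stages, *rab40b* was not called in controls (log2 fold change 0.92, limma adjusted p = 0.3) or with Pb (0.60, adjusted p = 0.599).

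Rab8 moves secretory vesicles to the cell surface and into cilia, and 2 copies of it were measured. *rab8a* was at 7.83, 8.26, and 8.16 in controls of 72 hpf and at 7.49, 7.15, and 7.47 in those of 120 hpf. With Pb it was at 7.47, 8.54, and 7.93 and then at 7.36, 7.70, and 7.00. The groups did not overlap in controls and overlapped with Pb. Over both treatments *rab8a* fell 1.59-fold (log2 fold change -0.67 ± 0.195 SE, limma adjusted p = 0.0414), with all 12 probes lower in controls and all 12 with Pb. In the single comparisons it was not called (adjusted p = 0.201 in controls and 0.31 with Pb), and the pooled call remained without the Pb array of replicate 1 at 72 hpf or of replicate 2 at 120 hpf and was lost without any 1 of the other 10 arrays (log2 fold changes of -0.73 to -0.53, adjusted p = 0.0527 to 0.0999). *rab8b* was at 9.39, 9.09, and 9.41 in controls of 72 hpf and at 9.42, 9.0, and 9.45 in those of 120 hpf, and its log2 fold change over both treatments was 0.01 (95% interval -0.34 to 0.37). The difference between the copies was not tested. *rab39ba* and *rab39bb*, copies of a Rab that is mutated in a human intellectual disability, had log2 fold changes over both treatments of -0.10 (95% interval -0.46 to 0.26) and 0.26 (-0.05 to 0.57), and neither was called. *rab39ba* was at 10.17, 10.75, and 10.70 in controls of 72 hpf and at 10.48, 10.23, and 10.73 in those of 120 hpf, and *rab39bb* at 9.29, 9.49, and 9.35 and then at 9.86, 9.36, and 9.66, so that the stages overlapped for both.

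Other Rab genes had sizeable values without a call. *rab7b*, whose mammalian counterpart works on late endosomes, was at 10.14, 10.27, and 10.40 in controls of 72 hpf and at 10.44, 10.64, and 10.81 in those of 120 hpf. With Pb it was at 10.37, 10.18, and 9.76 and then at 10.61, 10.97, and 10.53. All 6 later values lay above all 6 earlier ones, and the log2 fold change over both treatments was 0.48 (limma adjusted p = 0.0565). *rab5if*, named as an interacting factor of Rab5, had a log2 fold change in controls of -0.58 (standard error 0.26, adjusted p = 0.281), and its control of replicate 2 at 120 hpf, at 12.77, lay near the 12.87 to 12.99 of 72 hpf while replicates 1 and 3 were at 12.04 and 12.18.

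Among the Arf and Arl genes, *arf4a* fell. Arf4 recruits coats at the Golgi and helps to send cargo to cilia. *arf4a* was at 10.02, 10.26, and 10.34 in controls of 72 hpf and at 9.30, 9.36, and 9.32 in those of 120 hpf. With Pb it was at 9.87, 10.28, and 9.62 and then at 9.57, 9.56, and 8.97. Every later value lay below every earlier one, narrowly so with Pb. The fall was 1.84-fold in controls (log2 fold change -0.88 ± 0.224 SE, limma adjusted p = 0.0443) and 1.64-fold over both treatments (-0.72 ± 0.158 SE, adjusted p = 0.0106), with 12 of 12 probes lower in controls and 11 of 12 with Pb. With Pb alone it was not called (log2 fold change -0.55, adjusted p = 0.26). Without any 1 of the 6 control arrays the call in controls was lost (log2 fold changes of -0.97 to -0.81, adjusted p = 0.0837 to 0.161), whereas over both treatments *arf4a* was called in all 21 alternative settings (log2 fold changes of -0.96 to -0.62). *arl16* was at 8.05, 8.0, and 8.06 in controls of 72 hpf and at 8.89, 8.21, and 8.79 in those of 120 hpf (log2 fold change 0.59, adjusted p = 0.225). The other 4 genes of this group, partners included, lay between -0.28 and -0.10.

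Of the adaptor genes, *ap1s3a* rose over both treatments. It encodes a small subunit of AP-1, the clathrin adaptor of the trans-Golgi network. It was at 8.10, 8.66, and 8.62 in controls of 72 hpf and at 8.83, 9.56, and 9.25 in those of 120 hpf. With Pb it was at 7.60, 8.62, and 8.47 and then at 8.80, 9.0, and 8.83. The later values lay above all earlier ones, and the Pb array of replicate 1 at 72 hpf was the lowest of the 12. The rise was 1.62-fold (log2 fold change 0.70 ± 0.201 SE, limma adjusted p = 0.0394 over both treatments; adjusted p = 0.185 in controls and 0.316 with Pb). It remained called without any 1 Pb array of 72 hpf or the control array of replicate 1 at 120 hpf, and was lost without any 1 of the other 8 arrays (log2 fold changes of 0.61 to 0.75, adjusted p = 0.0563 to 0.102). *ap3s1*, the matching subunit of AP-3, which serves traffic to lysosomes, had log2 fold changes of 0.11 in controls and 0.07 with Pb.

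Among 7 sorting nexins, 1 was called. *snx18b*, from a nexin that binds and bends membranes, was at 6.97, 7.00, and 7.06 in controls of 72 hpf and at 6.62, 6.31, and 6.20 in those of 120 hpf. With Pb it was at 7.05, 7.06, and 7.18 and then at 6.25, 6.23, and 6.67. Both stages were well apart in both treatments. *snx18b* fell 1.59-fold over both treatments (log2 fold change -0.67 ± 0.134 SE, limma adjusted p = 0.00561), with 12 of 12 probes lower in controls and 11 of 12 with Pb. In the single comparisons it missed the threshold (-0.63, adjusted p = 0.0864 in controls and -0.71, adjusted p = 0.0676 with Pb). With only the probes of the last 500 nt the pooled call was lost (-0.72, adjusted p = 0.0715). Its signal lay at the 18.3rd percentile of all targets, the lowest of the 60 genes. The other 6 nexins had log2 fold changes in controls of -0.34 to 0.13.

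**Figure D2:**
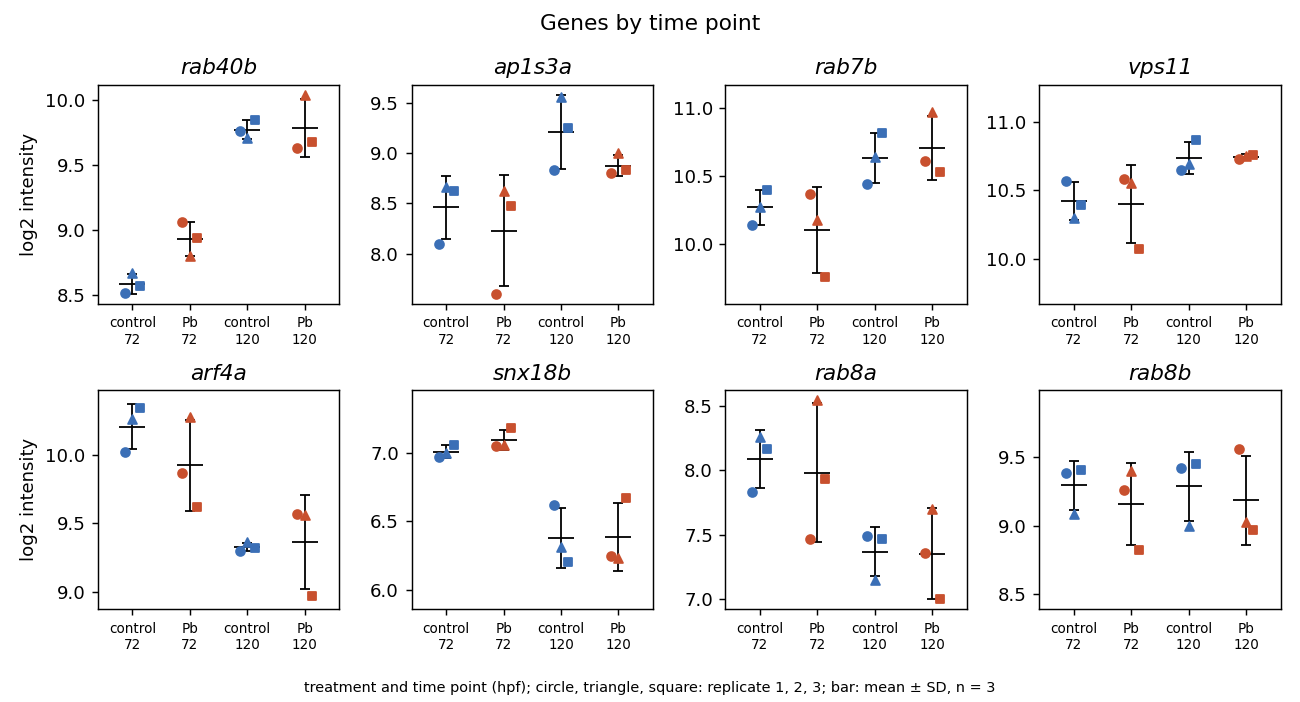
Log2 intensity of 8 genes in the 4 groups, control (blue) and Pb (orange) at 72 and 120 hpf, with circle, triangle, and square for replicates 1, 2, and 3, and bars for the mean ± SD (n = 3 arrays); each panel has an axis of its own. *rab40b*, *ap1s3a*, *rab7b*, and *vps11* lie higher at 120 hpf, *arf4a*, *snx18b*, and *rab8a* lower, and *rab8b* overlaps throughout.

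None of the remaining role groups held a call between stages. *vps11*, a core subunit of the HOPS and CORVET tethers of endosomes, was at 10.57, 10.30, and 10.39 in controls of 72 hpf and at 10.65, 10.69, and 10.87 in those of 120 hpf, and its log2 fold change over both treatments was 0.33 (limma adjusted p = 0.134), with no overlap among the 12 arrays. *vps33b*, a partner of such tethers, had one of 0.35 in controls (adjusted p = 0.449), and the 7 Vps genes ran from -0.24 to 0.35. *tmed8*, of the p24 family of Golgi cargo receptors by its name, did not overlap either (log2 fold change 0.38 over both treatments, adjusted p = 0.0919). *bloc1s6*, which encodes the BLOC-1 subunit pallidin, was at 11.22, 11.17, and 11.24 in controls of 72 hpf and at 11.72, 11.56, and 11.70 in those of 120 hpf (log2 fold change 0.45, adjusted p = 0.215), but at 0.02 with Pb (adjusted p = 0.983). *sec63*, a partner of the protein channel of the endoplasmic reticulum, was at 11.29, 11.30, and 11.13 in controls of 72 hpf and at 11.08, 10.42, and 10.80 in those of 120 hpf, which is lower without overlap (-0.47, adjusted p = 0.41). *snap47*, of the SNAP-25 family of SNAREs, had a log2 fold change in controls of 0.52 (adjusted p = 0.444) and *trappc2l* of the TRAPP tether one of 0.41 (adjusted p = 0.592). Those of *chmp6b* of ESCRT-III, *exoc6b* of the exocyst, and *cops3* were 0.30, -0.26, and 0.10.

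The stage changes of control and of Pb-treated embryos come from different arrays and could be set side by side. Same-numbered control and Pb arrays of 120 hpf deviated together, so both changes are not fully independent. Across the 60 genes, Pearson's r between them was 0.752 and Spearman's rho 0.738, and 46 genes (76.7%) had the same sign in both. Over all targets these were 0.851, 0.731, and 76.8%. Genes are not independent replicates, so no p is given. Some marker genes of organs also differed between the stages in controls. Of 11 listed red blood cell genes 3 were found by symbol, and their summed intensity ran from 24960 to 29810 in controls of 72 hpf and from 11590 to 18060 at 120 hpf. That of *prss59.1*, the only gene of 14 found by symbol for the exocrine pancreas, ran from 9185 to 19620 and from 39750 to 41680. The summed intensities of the 3 lens and 2 muscle genes found overlapped between the stages in controls. Those of lens ran from 50720 to 55380 and from 51200 to 58730. The part of such markers in the changes of trafficking genes was not tested.

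**Figure D3:**
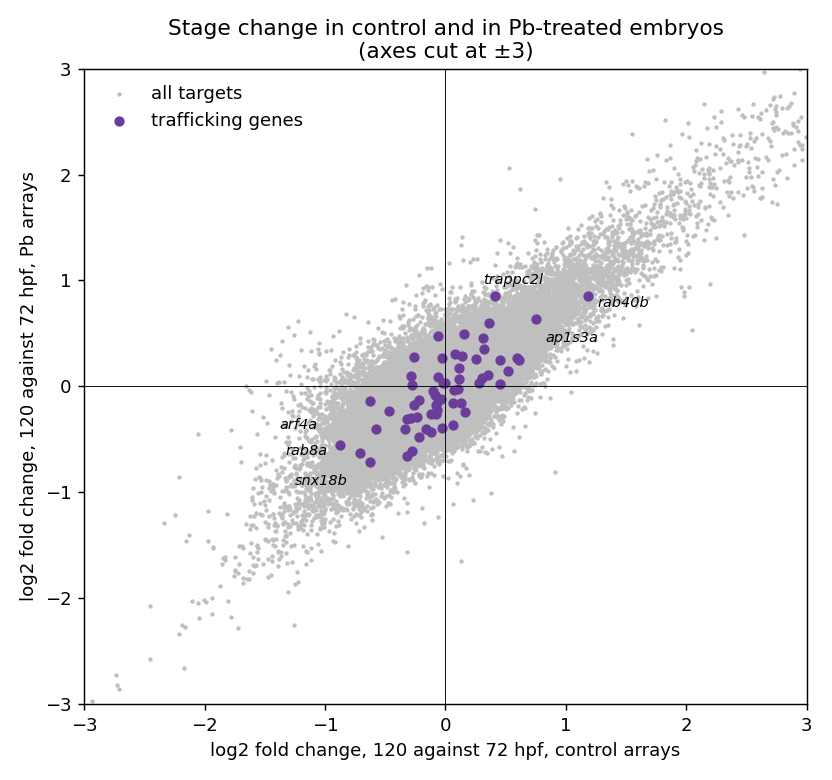
Log2 fold change from 72 to 120 hpf in control embryos (horizontal) and in Pb-treated embryos (vertical) for all targets (gray) and the 60 genes (purple), with both axes cut at ±3. The 60 genes lie within the cloud of all targets, with *rab40b* at 1.18 and 0.85 farthest to the right and *arf4a*, *snx18b*, and *rab8a* at the lower left.

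Pb-treated embryos of 72 hpf differed from controls in none of the 60 genes by the test. The paper lists *AP3D1*, *SNX26*, and *VPS13B* as lower with Pb at 72 hpf. No target under these names was among the 60, so the result does not cover them. limma called 0 of the 60 genes and 0% of all targets, and the adjusted p of the 60 genes lay between 0.999 and 1. At an unadjusted p under 0.05 it took 2 of the 60 genes (3.33%), *trappc2l* and *bloc1s6*, against 1.52% of all targets, and at 0.1 the methods' t-test took 6 (10%, against 3.98% of all targets), none after Benjamini-Hochberg adjustment. Neither of the study's own criteria was met by any of the 60 genes (criterion a, the methods' t-test at 0.1 and a mean log2 ratio of at least 0.585 in either direction, was met by 0.657% of all targets, and criterion b, such a ratio in each of the 3 pairs, by 0.234%). The median log2 fold change was -0.05, with 27 genes above 0 and 33 below, next to 0.04 over all targets. With the lowest 25% of targets left out it was -0.06 for the 55 genes kept and -0.02 over all targets kept. Spearman's rho of the Pb difference with the signal was -0.368 over all targets and 0.0322 across the 60 genes. The median over all targets thus depends on dim targets. By role the median was -0.12 for the 18 Rab genes, 0.12 for the 6 Arf and Arl genes, -0.04 for the 7 nexins, and -0.15 for the 7 Vps genes. The data bound most differences only to a log2 fold change of 1, which is wider than the study's 0.585. For 52 of the 60 genes (86.7%) the 95% interval of the log2 fold change lay within -1 and 1, against 77.5% of all targets. These intervals use the spread shared by all 4 groups. The Pb arrays of 72 hpf matched each other less closely than their controls did.

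Groups did not overlap for 5 genes at 72 hpf, 3 higher and 2 lower, where 4.7% of all targets did not overlap (2.78% higher and 1.92% lower). Control and Pb arrays of 1 replicate number, normalized as a pair in the deposited values, are called a pair here, although at 72 hpf not all of them deviated together. In all 3 pairs 12 genes were higher and 5 lower with Pb, where 13.9% and 10.5% of all targets were. Both BLOC-1 genes were among the higher ones. *bloc1s6* was at 11.80, 11.33, and 11.73 with Pb, against the control values given above, and all 12 of its probes were higher with Pb (95% interval of the log2 fold change 0.02 to 0.79). Its rise between stages in controls is taken from the same control arrays of 72 hpf, so both differences are not independent. *bloc1s5*, which encodes the BLOC-1 subunit muted, was at 7.99, 8.02, and 8.31 in controls and at 8.58, 8.02, and 8.61 with Pb (log2 fold change 0.30 ± 0.206 SE), so that pair 2 differed by 0.00 after rounding. At 120 hpf the log2 fold changes of both genes were -0.02 (95% interval -0.41 to 0.36) and 0.05 (-0.40 to 0.50). The difference between both stages in the Pb effect was -0.43 for *bloc1s6* (standard error 0.252) and -0.25 for *bloc1s5* (0.292), and limma gave each an adjusted p of 1.

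The tethers of the TRAPP complex, which receive vesicles at the Golgi, went both ways at 72 hpf. *trappc1* was at 9.81, 9.79, and 10.11 in controls and at 10.26, 10.11, and 10.32 with Pb (log2 fold change 0.33 ± 0.272 SE, 11 of 12 probes higher). *trappc2l* was at 9.24, 8.32, and 8.48 in controls and at 8.30, 7.84, and 7.17 with Pb, which is lower on all 3 Pb arrays than on any control. At 1.88-fold lower (95% interval of the log2 fold change -1.62 to -0.20) it had the largest difference of the 60 genes at 72 hpf, but it rests on 3 probes with unlike differences. They lie at positions 819, 1176, and 1201 nt of the transcript and gave differences of -0.85, -1.89, and 0.01. Their levels in controls of 72 hpf were 11.43, 8.39, and 6.22, so the probe without a difference was the dimmest. *trappc6b* had a log2 fold change of 0.28 and *trappc12* one of -0.31, where the Pb array of replicate 1, at 8.75, lay apart from replicates 2 and 3 at 10.21 and 10.25. *exoc6b*, of the exocyst, which tethers vesicles at the cell surface, was lower in each pair, at 9.17, 9.28, and 8.69 in controls and 8.70, 8.63, and 8.27 with Pb. Its log2 fold change of -0.51 had a standard error of 0.445, which also holds the wider spread of 120 hpf. The SD was 0.312 in controls and 0.233 with Pb at 72 hpf, and 1.01 and 0.68 at 120 hpf.

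Of the Rab genes at 72 hpf, *rab40b* was higher with Pb on all 3 arrays (log2 fold change 0.35 ± 0.178 SE), the direction of its stage change in controls. Both differences are taken from the same control arrays of 72 hpf, so their directions are not independent. *rab10*, a Rab of transport to the cell surface, was lower on all 3, at 12.69, 12.55, and 12.49 in controls and 12.47, 12.37, and 12.07 with Pb (-0.27 ± 0.187 SE). The 3 largest Rab differences varied with the arrays kept. *rab11fip4a*, an effector of Rab11 on recycling endosomes, was at 10.97, 11.12, and 10.73 in controls and at 9.28, 11.23, and 10.35 with Pb (log2 fold change -0.65, and -0.15 without the Pb array of replicate 1). *rab3gap1*, which regulates Rab3 and Rab18, was at 8.50, 9.0, and 8.81 and then at 6.55, 9.07, and 8.79 (-0.63, and 0.16 without that array). *rab23*, a Rab that holds back Hedgehog signaling, was at 9.85, 10.15, and 10.08 and then at 8.85, 10.20, and 9.34 (-0.57, -0.26 without it, and -0.93 without the Pb array of replicate 2), so that replicates 1 and 3 lay below every control. In each of the 3 genes the Pb array of replicate 1, the one with the steepest signal along the transcripts, was the lowest, and the Pb array of replicate 2 lay above its control. The part of that array's signal gradient in these values was not tested. The Spearman correlation of the Pb difference with the position of the last probe was -0.246 across the 60 genes and -0.232 across all targets. *ap1s3a* was lower in each pair (log2 fold change -0.23), and was at 0.09 without the Pb array of replicate 1.

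At 120 hpf none of the 60 genes passed the test either. limma called 0 of 60 genes and 0% of all targets, with an adjusted p of 1 for each gene. At an unadjusted p under 0.05 it took only *rab21*, 1 of 60 genes (1.67%), against 0.301% of all targets, and at 0.1 the methods' t-test took 3 (5%, against 3.57% of all targets), none after Benjamini-Hochberg adjustment. Again neither criterion was met (0.218% and 0.0323% of all targets met a and b). The median log2 fold change was -0.06, with 22 genes above 0 and 38 below, next to a median over all targets of 0.00. With the lowest 25% of targets left out it was -0.07 for the 55 genes kept and -0.03 over all targets kept. The values of the 60 genes ran from -0.53 to 0.39, and for 49 of them (81.7%) the 95% interval lay within -1 and 1. The pancreas gene *prss59.1* had linear intensities of 39750 to 41680 in controls and 29150 to 36630 with Pb, without overlap, and its part in these values was not tested. The difference of the Pb effect between both stages gave 0 calls among the 60 genes and 0% over all targets, with 0 of the 60 at an unadjusted p under 0.05 against 0.202% of all targets. The methods' t-test was not run on that difference.

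Groups did not overlap for 5 genes at 120 hpf, 1 higher and 4 lower with Pb, where 4.04% of all targets did not overlap (2.22% higher and 1.82% lower). In all 3 pairs 3 genes were higher and 11 lower, where 11.4% and 9.99% of all targets were. *rab21*, a Rab of early endosomes that takes up integrins, was at 9.06, 9.13, and 9.09 in controls and at 8.64, 8.71, and 8.53 with Pb. All 3 Pb values lay below all 3 controls, and 10 of 12 probes were lower. Its 95% interval was -0.90 to -0.04 on the log2 scale, or 1.38-fold lower at the mean. At 72 hpf it was at 9.09, 9.16, and 8.84 in controls and at 8.65, 9.18, and 8.54 with Pb (log2 fold change -0.24 ± 0.199 SE), with no gap in pair 2.

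Among the SNARE genes of 120 hpf, *snap47* was at 8.77, 9.14, and 9.03 in controls and 8.50, 8.11, and 8.74 with Pb, all below the controls (log2 fold change -0.53 ± 0.303 SE). With only the probes of the last 500 nt its difference was -0.08. *stx18*, a syntaxin of the endoplasmic reticulum that receives vesicles coming back from the Golgi, was the 1 higher gene without overlap, at 10.28, 10.28, and 10.44 in controls and 10.54, 10.44, and 10.72 with Pb (0.23 ± 0.188 SE), with 11 of 12 probes higher. The highest control and the lowest Pb value of *stx18* were both 10.44 after rounding, so the gap was very small. The replicate 3 values of *stx18* were the highest in both groups. *vps37c*, a subunit of ESCRT-I, was at 9.58, 9.52, and 9.47 in controls and 9.37, 9.30, and 8.83 with Pb (-0.36 ± 0.267 SE), and at -0.02 with only the probes of the last 500 nt.

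The fourth lower gene was *rab11fip4a*, at 11.06, 11.05, and 11.16 in controls and 11.02, 10.38, and 10.93 with Pb (log2 fold change -0.32). Its value at replicate 1 was close to the controls, and the log2 ratios of pairs 1, 2, and 3 were -0.04, -0.67, and -0.24. *rab18b*, a Rab of lipid droplets and the endoplasmic reticulum, was lower in each pair, at 10.60, 11.38, and 10.90 in controls and 10.31, 11.30, and 9.97 with Pb, with pairs 2 and 3 at -0.08 and -0.93. Its arrays spread widely and the groups overlapped (log2 fold change -0.43 ± 0.374 SE, and -0.15 without the Pb array of replicate 3). *snx21*, a nexin, was at 6.36, 6.64, and 6.53 in controls and 6.51, 6.80, and 6.62 with Pb (log2 fold change 0.13), and *cops6* at 10.98, 11.05, and 11.13 and then 11.07, 11.20, and 11.21 (0.11), both higher in each pair by small amounts.

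**Figure D4:**
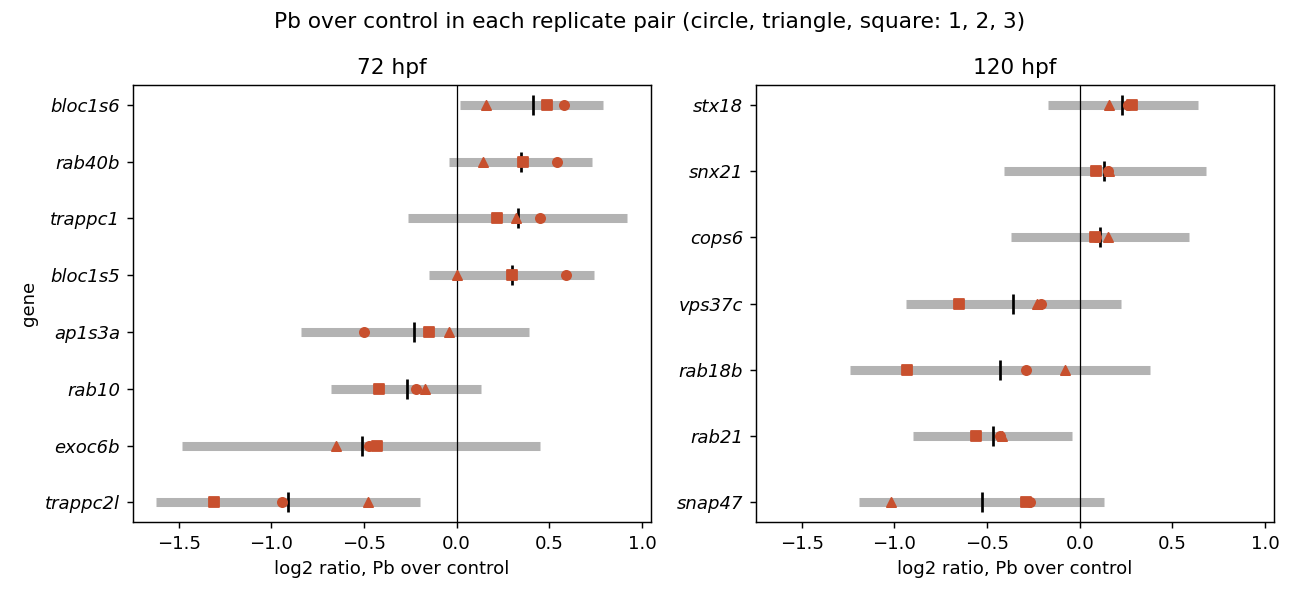
Log2 ratio of Pb over control in each replicate pair (circle, triangle, and square for pairs 1, 2, and 3), with a black tick for limma's log2 fold change and a gray bar for its 95% interval, for the genes with 1 sign in all 3 pairs and the largest differences, at 72 hpf (left) and 120 hpf (right). The intervals of *bloc1s6* and *trappc2l* at 72 hpf and of *rab21* at 120 hpf do not reach 0 before adjustment over 37157 targets.

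Of the 60 genes, 12 (20%) had their lowest value of all arrays on the Pb array of replicate 3 at 72 hpf and 12 (20%) on that of 120 hpf, where 16.4% and 7.86% of all targets did. The Pb array of replicate 3 at 72 hpf also held the highest value of 10 genes (16.7%) and of 20.1% of all targets, and that of 120 hpf the highest of 2 genes (3.33%) and of 7.4% of all targets. Such departures were not limited to replicate 3. The control array of replicate 2 at 120 hpf held the highest value of 11 genes (18.3%, against 6.72% of all targets). On the Pb array of replicate 2 at 72 hpf 10 genes were highest (16.7%, against 4.86% of all targets). The median log2 ratio of the 60 genes was 0.06, 0.10, and -0.23 in pairs 1, 2, and 3 at 72 hpf and -0.05, 0.02, and -0.18 at 120 hpf, next to medians over all targets of 0.12, 0.01, and -0.01 and of -0.01, 0.03, and 0.01. The median log2 fold change of the 60 genes, below 0 with all arrays, was 0.01 at 120 hpf without the Pb array of replicate 3. At 72 hpf it became 0.02 when the first Pb array was left out, 0.04 when the third was, and 0.03 when the third control array was.

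**Figure D5:**
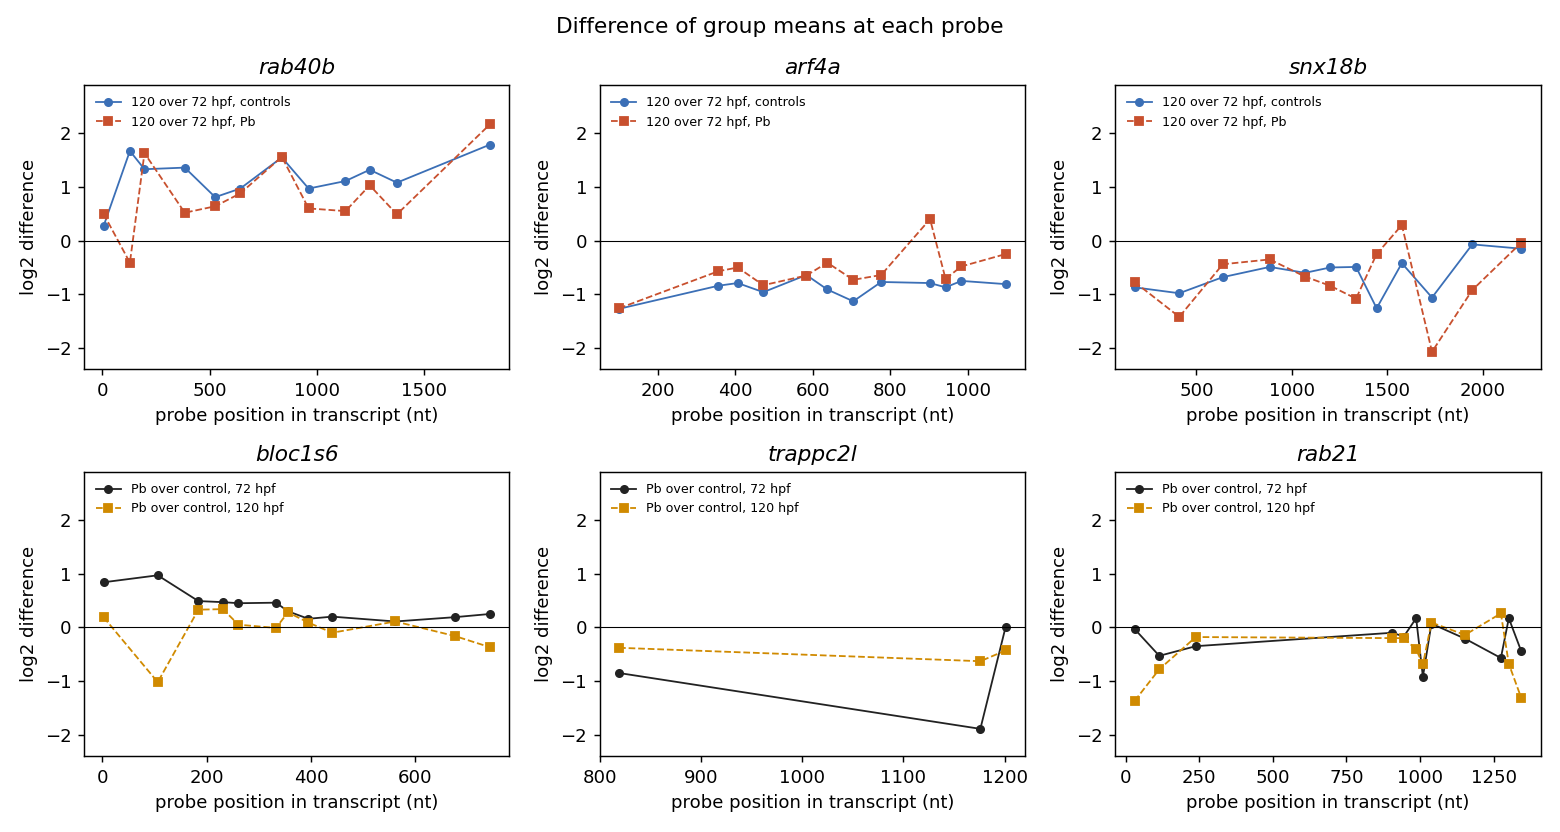
Difference of group means at each probe by its position along the transcript in nt, for 3 genes called between stages (top, 120 over 72 hpf in controls and with Pb) and 3 genes with the smallest unadjusted p with Pb (bottom, Pb over control at 72 and 120 hpf). The control lines of *rab40b* stay above 0 and those of *arf4a* and *snx18b* below, and the 3 probes of *trappc2l* at 72 hpf range from -1.89 to 0.01.

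Other genes of the same pathways, taken from lists of coat and endocytosis genes, SNARE regulators, Rab and Arf regulators, transport between endoplasmic reticulum and Golgi, and endosome and lysosome genes, held no call with Pb either. The 387 listed genes were matched by symbol, which gave 44 targets. Listed genes among the targets without a symbol could not be found this way. *PICALM*, a clathrin assembly gene that the paper lists as lower with Pb at 72 hpf, was not among the 44. No target of the array was called with Pb at either stage at limma's adjusted p under 0.05, so no list could hold a call. The study's criteria use no such adjustment, and some targets met them, as given above. limma called 0 of the 44 with Pb at 72 hpf (14 above 0 and 30 below, median log2 fold change -0.10, against 20715 above, 16442 below, and 0.04 over all targets) and 0 at 120 hpf (15 above and 29 below, median -0.04, against 18913, 18244, and 0.00). With the lowest 25% of targets left out, the medians over all targets kept were -0.02 at 72 hpf and -0.03 at 120 hpf. From 72 to 120 hpf in controls limma called 1 of 44 (2.27%, against 4.75% of all targets), *ldlra*, the receptor that takes up low-density lipoprotein through clathrin-coated pits, which rose 2.19-fold (log2 fold change 1.13 ± 0.272 SE, adjusted p = 0.0338). With Pb its log2 fold change between stages was 1.07 (adjusted p = 0.0568). Over both treatments 3 of 44 (6.82%) were called, against 12.4% of all targets. *ldlra* rose (adjusted p = 0.00254), as did *tbc1d7*, a subunit of the TSC complex (log2 fold change 0.47, adjusted p = 0.0236), and *rilpl2*, a Rab effector of cilia, fell (log2 fold change -0.60, adjusted p = 0.0308).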

How the data were processed

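The authors labeled the RNA of each embryo pool with Cy3, hybridized it to an array of 385000 probes in one color, and deposited 1 linear intensity per probe and array. Their methods and the submitters' processing notes name quantile normalization and RMA, with no version in the sources used here. The deposited intensities are per probe, and were quantile normalized within each control and Pb pair only. The mean absolute difference of the sorted log2 values was at most 0.00902 within pairs. Between the control arrays of different pairs it was 0.0895 to 0.966. Background values were not used here, so no level could be called undetected.

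For the present results, log2 intensities of all 12 arrays were quantile normalized, and the probes of a target were averaged, which gave 37157 targets, dim ones included. The tests were run in R 4.3.3 with limma 3.58.1 (tables were read with data.table, version 1.17.8). A model with a mean for each of the 4 groups and no replicate block was fitted by lmFit and eBayes, followed by Benjamini-Hochberg adjustment over all targets (threshold 0.05). Median array intensities ran from 375.8 to 669.9. The number of arrays limits the precision. The criteria of the study were computed on the same values: a, the methods' t-test at 0.1 and a mean log2 ratio of at least 0.585, and b, such a ratio in each of the 3 pairs.

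Symbols came from the platform's annotation for 58 genes and from current RefSeq transcripts for *arf4a* and *arl3a*. Probe sequences were not used here, so hybridization to the other copy of a pair (*rab8a* and *rab8b*, *rab39ba* and *rab39bb*) was not tested. The genes described singly are each role's gene of smallest unadjusted p between stages in controls, the 4 largest rises and 4 largest falls between stages (filled by smallest unadjusted p) and, with Pb, among genes of 1 sign in 3 pairs, and the copies of a gene; *rab7b*, *vps11*, *tmed8*, *rab11fip4a*, *rab3gap1*, *rab23*, and *trappc12* were added after their values were seen. The members, lists, and tests were chosen with earlier results of these data known.

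Same-numbered control and Pb arrays deviated together from their group means at 120 hpf (r = 0.548, 0.434, and 0.268) and were taken to pair there. At 72 hpf (0.452, 0.402, and -0.069) they were not. Alternatives were a replicate block, median polish, deposited values, median centering, probes within 500 nt of the last probe, array weights, a variance trend, leaving out the lowest 25% of targets, only the groups compared, and each array left out.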

Additional observations from a re-analysis of the deposited data

Results flagged for a closer look

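*sec61b*, which encodes a subunit of the channel that takes new proteins into the endoplasmic reticulum, had opposite signs at the 2 stages. All 3 Pb arrays of 72 hpf lay above the control array of the same replicate number, with log2 ratios of 0.09, 0.16, and 0.10, and all 3 of 120 hpf lay below it, with -0.05, -0.13, and -0.02. The difference of the Pb effect, 120 minus 72 hpf, was -0.19 on the log2 scale (95% interval -0.76 to 0.39) and did not pass when it was tested (adjusted p = 1 from limma). Each ratio was smaller than the spread among the controls of its stage (SD 0.199 at 72 hpf and 0.148 at 120 hpf, n = 3 arrays each). That SD is a spread between replicates and does not measure how the ratios within pairs vary. The numbers pair the arrays at 120 hpf but were not taken to pair them at 72 hpf.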

How the results depend on the processing

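The 0 calls with Pb among the 60 genes held under every alternative run at both stages. With the replicate number as a block, limma called 0 genes with Pb at 72 and at 120 hpf. It called 2 between stages in controls, 1 with Pb, and 5 over both treatments, so the block changed no call. Between stages, the block was shared by all arrays of 1 replicate number across both stages. Control and Pb pairs within a stage were not blocked there, so their part in the stage calls was not tested. The criteria of the study were met by 0 to 1 genes when 1 replicate number was left out. Both cases of 1 gene were without replicate 2, *rab23* at 72 hpf and *stx4* at 120 hpf.

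Calls between stages depended on the scaling. The share of all targets called under each alternative is not given here, so the counts below cannot be set against it. The 2 calls in controls became 0 with the values as deposited, 1 (*rab40b*) with median centering, with probes within 500 nt of the last probe, with a variance trend, and without any 1 array, 3 with median polish (*snx18b* added) and with only the 2 groups compared (*rab8a* added), and 21 with array weights, which gave the control array of replicate 3 at 120 hpf a weight of 13 against at most 1.84 for another array. The 1 call with Pb became 0 with the values as deposited, with median centering, and with only the 2 groups compared, 2 with median polish (*snx18b* added), and 0 to 1 with 1 array left out. The 5 calls over both treatments became 3 with the values as deposited, 15 with array weights, and 3 to 7 with 1 array left out. There *arf4a* was called in 21, *rab40b* in 20, *ap1s3a* in 11, and *rab8a* in 9 of 21 settings, and *snx18b* in 19 of the 20 that tested it. As deposited, the median stage change of all targets was -0.33 in controls and with Pb, and that of the 60 genes -0.28 and -0.30.

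Some signs turned, all of values that were not called. In the stage change of controls, *cops3* was at -0.04, *tmed8* at -0.02, and *rab39bb* at -0.01 as deposited. With 1 array left out, *cops3* ran from -0.01 to 0.22 and *exoc6b* from -0.72 to 0.28, with the sign turned without the control array of replicate 2 at 120 hpf, *rab8b* from -0.11 to 0.14, and *rab39ba* from -0.25 to 0.06. *rab8b* was at 0.26 with only the probes of the last 500 nt and at 0.16 with array weights, and *rab39ba* at 0.07 with array weights. With Pb at 72 hpf, *ap1s3a* ran from -0.42 to 0.09 and *rab3gap1* from -1.10 to 0.16, above 0 without the Pb array of replicate 1. The last and dimmest probe of *trappc2l* alone gave 0.01. The median Pb difference of the 60 genes ran from -0.08 to 0.08 at 72 hpf and from -0.09 to 0.03 at 120 hpf.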
